A study of Homo sapiens with 4 samples.

Results

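The miR-30 family was examined through the 5p arms of its hairpins, hsa-miR-30a-5p, hsa-miR-30b-5p, hsa-miR-30c-5p, hsa-miR-30d-5p and hsa-miR-30e-5p, written below without the prefix for human. These 5 members were picked by name, with no measured value in the choice, out of 851 human miRNAs on the array. Their levels were compared between migrated (MG) and non-migrated (non-MG) HCT116 cells, a human colon cancer line that the study gives as wild type for p53. MG cells were those that passed through a transwell membrane toward serum in repeated rounds of selection, non-MG cells were those that stayed on its upper side, and the labels call them high and low migratory cells. Both populations were taken from the same parent line and kept in the same medium, so each group stands for a selected line rather than for separate tumors. There were 2 arrays per group, and nothing in the labels tells whether the replicates came from separate cultures, so p-values measure only the spread between these arrays, which may be technical.

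miRNAs are short RNAs that guide the silencing machinery to messenger RNAs, mainly through the seed, the bases near their 5′ end. The members of the miR-30 family share a seed, and are therefore predicted to reach largely the same targets, but they come from separate hairpin genes. In several epithelial tissues the family is known to repress genes of the epithelial-mesenchymal transition, among them SNAI1 and VIM, which makes it of interest in cells selected for migration.

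All members of the family read low, under a signal of 50 on every array. Of the 5 members, miR-30b-5p, miR-30c-5p and miR-30d-5p were detected on all 4 arrays, miR-30e-5p on 3 arrays and miR-30a-5p on none. Among all 851 human miRNAs, 16.3% were found on at least 1 array and 13.5% on all 4. miR-30c-5p was lower in MG cells, at 0.594 of its non-MG signal, and was the only member to pass the test, which called 9.57% of the 115 miRNAs tested. Of these 115, 73.0% had a mean change below 0. The signal of miR-30c-5p came from 1 of its 2 probes, and its call was lost under some other processing. miR-30b-5p stood at 0.699 of its non-MG signal and miR-30d-5p at 0.915, and neither passed. With a minimum signal of 20, which left out miR-30c-5p, miR-30b-5p passed. The difference in change between these members did not pass a test either.

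The mature sequences show how alike the members are and where they differ, which bears on what the probes of one member could read of another. They were taken from the RefSeq table for GRCh38.p14, which held 3 of the 5 members, with the seed at bases 2 to 8 in capitals. miR-30a-5p comes from MIR30A at chr6:71403595-71403616 on the minus strand. miR-30c-5p comes from 2 genes with the same mature sequence, MIR30C1 at chr1:40757300-40757322 on the plus strand and MIR30C2 at chr6:71377003-71377025 on the minus strand. miR-30e-5p comes from MIR30E at chr1:40754371-40754392 on the plus strand.
miR-30a-5p: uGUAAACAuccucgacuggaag
miR-30c-5p: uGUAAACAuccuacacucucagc
miR-30e-5p: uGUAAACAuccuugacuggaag

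These 3 sequences were the same over their first 12 bases. miR-30a-5p and miR-30e-5p shared 21 of 22 bases and differed by the single substitution C13U, counted from 1 at the 5′ end. miR-30c-5p shared 17 of the first 22 bases with each of them. Of 2370 human mature miRNAs in the table, 3 carried this seed, and all 3 were members. In the annotation MIR30E and MIR30C1 were neighboring genes within the bounds of NFYC, MIR30C2 and MIR30A were neighbors between OGFRL1 and LINC00472, and MIR30B and MIR30D were neighbors within the bounds of ZFAT. The scanner files name an older build, and no position was moved between builds.

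Each member was read by 16 spots in 2 or 3 probe designs per array. The signal is the background-subtracted fluorescence summed over those probes that stood above 3 times their own error, in arbitrary units, and a miRNA with no such probe counts as not detected. Arrays were brought to a common scale at the 75th percentile of those miRNAs that all 4 arrays detected. Before scaling this percentile lay between 142 and 158. Per array, 118 to 135 miRNAs were found, fewest on MG replicate 2, which also had the highest lowest-detected signal, at 5.57 against 2.08 to 2.57 elsewhere. The 4 arrays shared 1 slide, with non-MG cells in its row 1 and MG cells in its row 2, so that position on the slide and group cannot be told apart. Markers of other cell types were mostly absent. Blood, skeletal muscle and hepatocyte markers were not detected, with 0 of 5, 0 of 3 and 0 of 1 found. Of 5 fibroblast and smooth muscle markers, miR-145-5p was detected on 3 arrays, at a summed scaled signal of 0 to 9.24. The endothelial marker miR-126-3p was found on all 4 arrays, at 6.61 to 10.3, and of 2 neuronal markers miR-9-5p was found on 1 array, at 6.96. Of 8 markers of intestinal epithelium, the 5 from the miR-200 family were detected on all 4 arrays, with summed signals of 669 and 729 in non-MG cells and 630 and 650 in MG cells, while miR-192-5p, miR-194-5p and miR-215-5p were not detected on any array. The part of these markers in the miR-30 values was not tested.

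**Figure D1:**
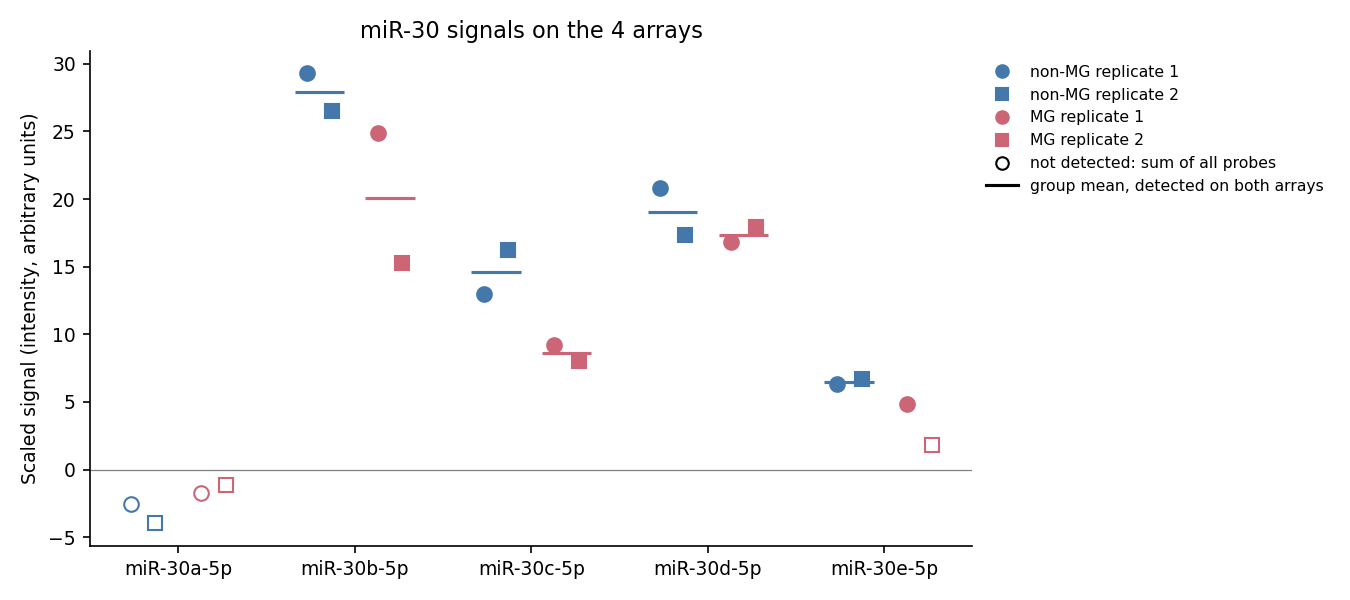
Scaled signal (arbitrary units) of each miR-30 member on the 4 arrays, with circles for replicate 1, squares for replicate 2, filled symbols where the member was detected, open symbols for the sum of all probes where it was not, and lines at the group means. Both MG arrays lie below both non-MG arrays for miR-30b-5p and miR-30c-5p, as for 40.0% of the 115 human miRNAs detected on all 4 arrays. The groups overlap for miR-30d-5p, and miR-30a-5p lies below 0 on every array.

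hsa-miR-30c-5p, made from 2 genes, had scaled signals of 12.97 and 16.3 in non-MG cells and 9.24 and 8.05 in MG cells. The groups did not overlap, with or without scaling, and the higher MG array lay 28.8% below the lower non-MG array. Non-overlap in this direction was found for 40.0% of the 115 human miRNAs detected on all 4 arrays with scaling and for 37.4% without. The means were 14.6 ± 2.32 in non-MG cells and 8.64 ± 0.843 in MG cells (SD, n = 2). The log2 change was -0.75 with a standard error of 0.171 and a 95% interval of -1.13 to -0.37, and the limma adjusted p over 115 human miRNAs detected on all 4 arrays was 0.0178. Of these 115 miRNAs, 8 were called lower in MG cells, or 6.96%, and 3 were called higher. After quantile normalization the calls split into 6 lower and 5 higher. In the order of changes from the lowest, miR-30c-5p was number 7 of 115. Each array was also left out in turn, and the array that then stood alone was assumed to vary like the pair of the other group. Without non-MG replicate 1 the log2 change was -0.91, and without non-MG replicate 2 it was -0.59. Without MG replicate 1 it was -0.85, and without MG replicate 2 it was -0.65. Each of these fits left 1 array in a group and took the spread from the other group's pair and from limma's pooling over miRNAs. Only the log2 changes of these fits are read here, and not whether miR-30c-5p was called in them.

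hsa-miR-30b-5p had scaled signals of 29.3 and 26.5 in non-MG cells and 24.9 and 15.3 in MG cells. Both MG arrays were below both non-MG arrays, by 6.05% at the nearest, but before scaling the groups overlapped, at 30.9 and 25.1 against 25.3 and 14.99. Non-overlap in this direction was found for 40.0% of the 115 miRNAs with scaling and for 37.4% without. The means were 27.9 ± 1.98 in non-MG cells and 20.1 ± 6.82 in MG cells (SD, n = 2). The log2 change of -0.52 had a standard error of 0.220, a 95% interval of -1.01 to -0.03 and a limma adjusted p of 0.163, so it did not pass. This value rested largely on MG replicate 2, the array with the fewest detected miRNAs. Without it the log2 change was -0.16, and without MG replicate 1 it was -0.87. In both fits the MG cells were 1 array, so only the log2 changes are read.

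hsa-miR-30d-5p showed overlapping groups. Its scaled signals were 20.8 and 17.3 in non-MG cells and 16.8 and 18.0 in MG cells, with means of 19.1 ± 2.48 and 17.4 ± 0.824 (SD, n = 2). The log2 change was -0.13 with a standard error of 0.161 and a 95% interval of -0.49 to 0.23, and the limma adjusted p was 0.708. The interval reaches from a decrease to an increase, and the sign of the value turned without non-MG replicate 1 and with quantile normalization.

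hsa-miR-30e-5p, from the same stretch of chromosome 1 as MIR30C1, was the member lost on part of the MG arrays. Its scaled signals were 6.30 and 6.70 in non-MG cells and 4.82 on MG replicate 1, and it was not detected on MG replicate 2. Of the 139 human miRNAs found on any array, 6, or 4.32%, were missing on MG replicate 2 alone. With all probes summed, whether or not they stood above their error, the values were 6.25 and 5.86 in non-MG cells and 3.94 and 1.84 in MG cells. On that sum the log2 change was -1.17 with a limma adjusted p of 0.152 over 139 miRNAs, which did not pass in a fit that called 0.719% of them, and non-overlap in this direction was found for 38.8% of those miRNAs.

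hsa-miR-30a-5p was listed at 0.1 on all 4 arrays, the value given to a miRNA that was not detected. Its 2 probes read between -2.32 and 0.904, where 3.36 to 5.42 would have been needed. Its mature sequence differs from that of miR-30e-5p by C13U alone, and a probe of miR-30e-5p stood above 3 times its error on 3 arrays where those of miR-30a-5p did not. Whether probes of one member also read another was not tested. The other arms of the hairpins, the 3p strands that are mostly discarded after processing, were present on the array as 6 miRNAs with 16 probes. None of the 6 was detected on any array, and their probes lay between -2.04 and 2.35 times their error.

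Detection of the members rested on few probes. Of 11 probe designs for the 5 members, 4 stood above 3 times their error on all 4 arrays, 2 did so on 3 arrays and 5 on none. miR-30d-5p was the only member with both of its probes above on every array, at 4.85 to 7.56 and 3.88 to 6.23 times the error. miR-30c-5p was read by 1 of its 2 probes, at 3.94 to 7.58 times the error, while its other probe reached at most 1.498. One probe of miR-30b-5p lay at 7.98 to 9.59 times the error, a second ranged from 1.76 to 6.33 and fell below 3 on MG replicate 2, and the third stayed below 0. The sole probe behind miR-30e-5p ranged from 1.51 to 5.10 times the error. As a stricter view, the spots well above background out of 16 were 9 and 8 for miR-30b-5p in non-MG cells and 10 and 5 in MG cells. For miR-30c-5p they were 7 and 6 in non-MG cells and 6 and 3 in MG cells. For miR-30d-5p, 16 and 9 spots passed in non-MG cells and 16 and 7 in MG cells. For miR-30e-5p, 7 and 3 passed against 1 and 0, and miR-30a-5p had 1 such spot in all. MG replicate 2 had the fewest such spots for each of the 4 detected members, and 8.71% of all its miRNA spots passed, against 9.62% to 11.1% on the other arrays. The part of this array's lower detection in the members' values was not tested.

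**Figure D2:**
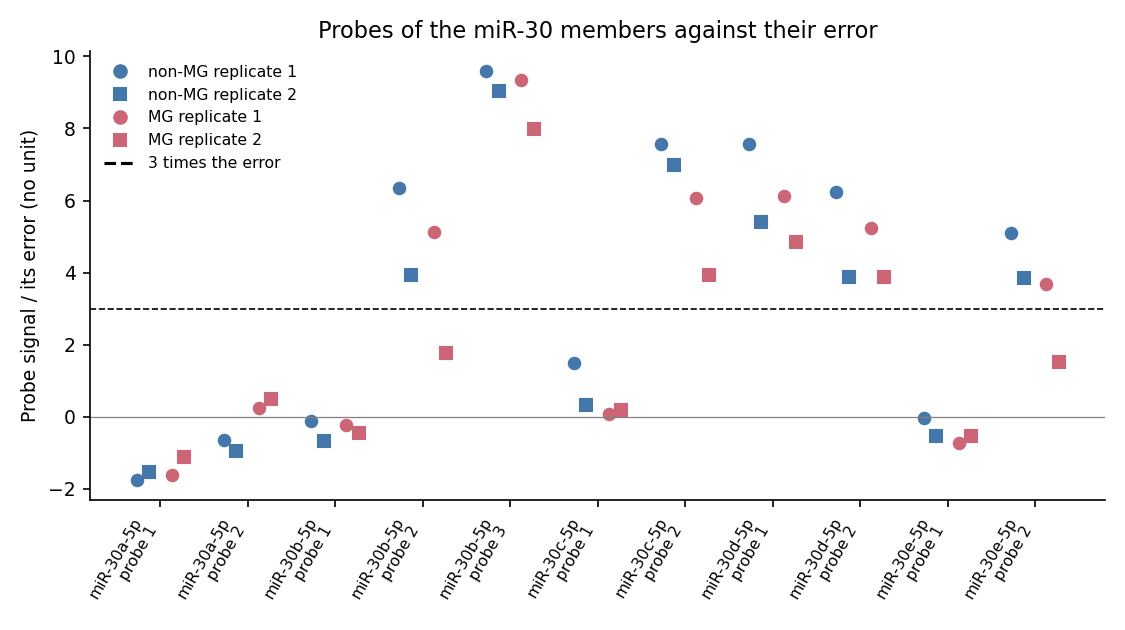
Signal of each probe of the 5 members divided by its own error (no unit) on the 4 arrays, with circles for replicate 1, squares for replicate 2 and a dashed line at 3 times the error. The 4 probes above the line on every array belong to miR-30b-5p, miR-30c-5p and miR-30d-5p, and none of the miR-30a-5p probes comes near it.

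Probe by probe, the members that were read by more than 1 probe did not give a single value. For miR-30b-5p the probe above its error on all arrays had a log2 change of -0.37 with groups that did not overlap, and the probe above on 3 arrays one of -0.72 with groups that did. On MG replicate 2 the latter probe was left out of the signal, and adding all probes there gave 16.7 in place of 15.3. The log2 change of miR-30b-5p over all its probes was then -0.43. The 2 probes of miR-30d-5p differed as well, at -0.22 without overlap and -0.00 with overlap. Repeated spots of the same probe varied by 11.4% (mean coefficient of variation) for the first of these miR-30b-5p probes and by 47.4% for the second, by 24.5% and 24.8% for the miR-30d-5p probes, by 45.4% for the miR-30c-5p probe and by 43.0% for the miR-30e-5p probe. These probe values are descriptions without a test, since spots of an array are not replicates of a group. How often the probes of other miRNAs did not overlap was not counted. At the level of miRNAs, non-overlap in this direction was found for 40.0% of the 115 human miRNAs detected on all 4 arrays.

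The members were then compared with each other by their change, because levels of different probes cannot be set against one another on an array. For each pair the log2 ratio was taken within an array and tested with limma among all 6555 pairs of the 115 miRNAs, of which 807, or 12.3%, were called. None of the 3 miR-30 pairs was called, 1 had an unadjusted p under 0.05, and an unmoderated test of the same ratios called 0 of all 6555 pairs, which leaves it without a say on those of the family. miR-30c-5p minus miR-30d-5p came nearest, at -0.62 with a 95% interval of -1.17 to -0.08 and a limma adjusted p of 0.130. miR-30b-5p minus miR-30d-5p was -0.39 with an interval of -0.97 to 0.19 (limma adjusted p = 0.387), and miR-30b-5p minus miR-30c-5p was 0.24 with an interval of -0.31 to 0.79 (limma adjusted p = 0.600). The intervals span up to a log2 difference of about 1, so these values do not show that the members changed alike.

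The changes of the members are set here against all miRNAs on the arrays. Of the 115 human miRNAs detected on all 4 arrays, 84, or 73.0%, had a mean change below 0, as did all 3 members. Both MG arrays lay below both non-MG arrays for 46 of the 115, or 40.0%, and for 2 of the 3 members. At least a 1.5-fold decrease was seen for 9, or 7.83%, of which miR-30c-5p was 1. The median log2 change of the 3 members was -0.52, beside -0.11 over the 115 miRNAs. Of the 115, 44 had a mean signal before scaling between 5 and 35, a range that holds the 3 members. Of these 44 miRNAs, 36, or 81.8%, had a mean change below 0, and the median log2 change of the 44 was -0.24. Non-overlap in this direction was found for 45.5% of them. The median deviation of these 44 miRNAs from their mean was 0.07 and 0.16 on the non-MG arrays, -0.03 on MG replicate 1 and -0.18 on MG replicate 2, so that dim miRNAs in general were lowest on the array where miR-30b-5p, miR-30c-5p and miR-30e-5p were lowest. The part of this in the members' changes was not tested. In RNA from whole cultures, fewer cells that express a miRNA and less of it per cell cannot be told apart.

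**Figure D3:**
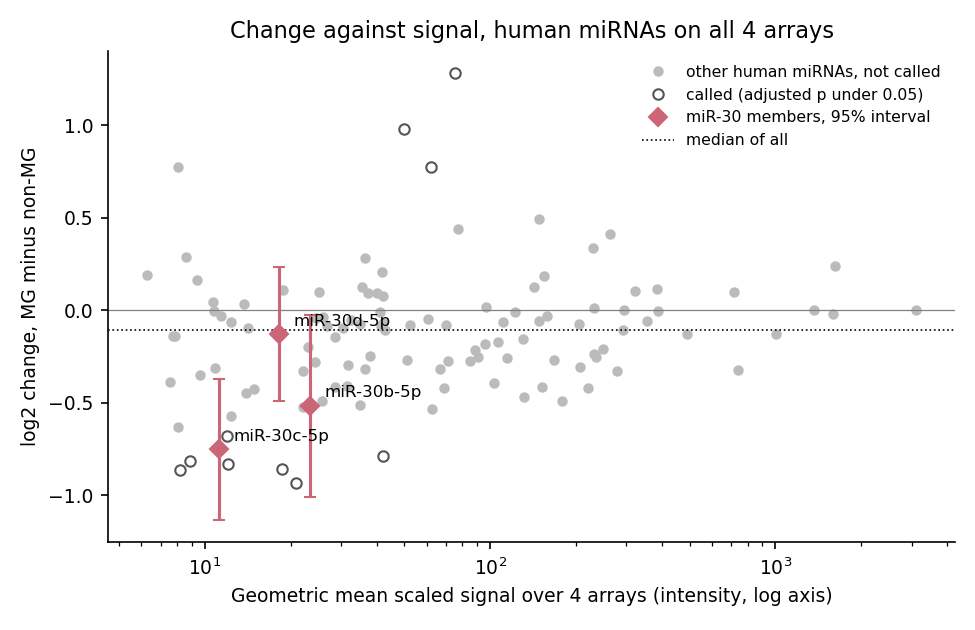
Log2 change, MG minus non-MG, against the geometric mean scaled signal over 4 arrays (log axis) for the 115 human miRNAs detected on all arrays, with open circles for called miRNAs, diamonds with 95% intervals for the miR-30 members and a dotted line at the median of all. The 3 members sit at the dim end, miR-30c-5p at -0.75 and miR-30b-5p at -0.52 in the lower part and miR-30d-5p at -0.13 near the median.

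The study selected miRNAs by a signal of at least 50, and no member reached 50 on any array in the authors' table. That minimum kept 57 of the 115 miRNAs, or 49.6%, none of them a member. The fit over these 57 called 24.6% and gave no value for the family. With a minimum of 20, miR-30b-5p and miR-30d-5p were tested and miR-30c-5p was not. The limma adjusted p of miR-30b-5p was then 0.0272 over 91 miRNAs, of which 15, or 16.5%, were called, with the same log2 change of -0.52. Whether miR-30b-5p or miR-30c-5p was the called member therefore changed with the signal minimum.

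The scanner files also hold a total per miRNA, and for 3 members this total was larger than the sum of their own probes. For miR-30b-5p the totals were 78.1 and 61.9 in non-MG cells and 62.1 and 38.1 in MG cells, from 2.45 to 2.54 times its own sum. For miR-30c-5p they were 91.8 and 77.3 in non-MG cells and 71.5 and 46.0 in MG cells, from 5.02 to 7.61 times its own sum. For miR-30e-5p they were 28.6 and 22.8 in non-MG cells and 22.0 on MG replicate 1, while the totals of miR-30d-5p equaled its own sum. On each array the excess equaled the total of the last detected miRNA before the member in the order of names, with undetected miRNAs in between skipped. That of miR-30b-5p matched the total of miR-29c-3p, at 47.2, 36.8, 36.8 and 23.1, that of miR-30c-5p matched the total of miR-30b-5p, and that of miR-30e-5p matched the total of miR-30d-5p. The 3 members with an excess had a probe below 3 times its error, and miR-30d-5p had none. Taken from these totals, miR-30b-5p and miR-30c-5p would have reached 50 on 3 arrays each. The signals of the authors' table, without the excess, were used throughout.

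**Figure D4:**
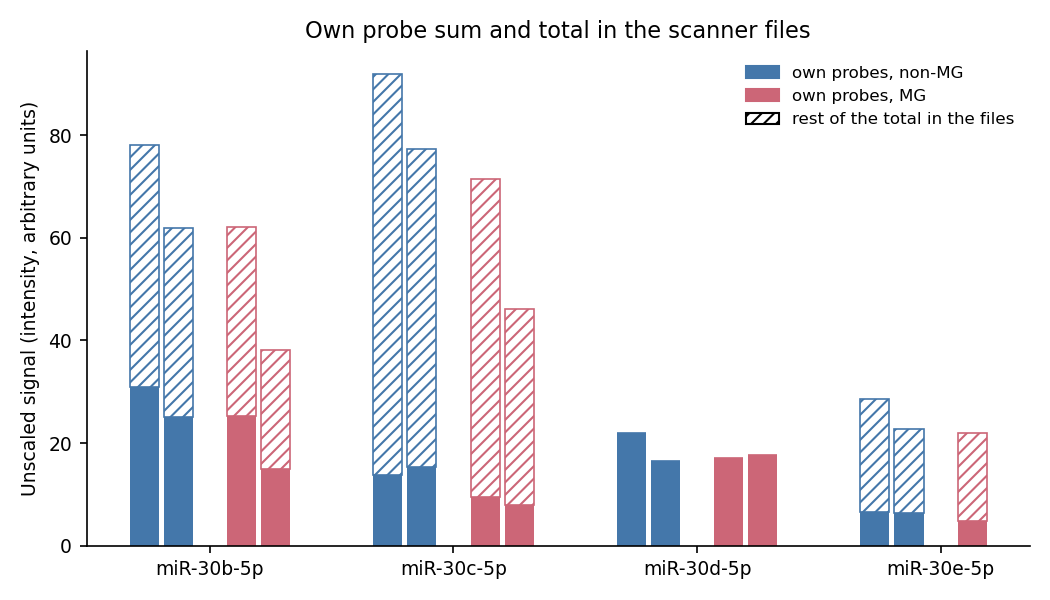
Unscaled signal (arbitrary units) of 4 members on each array, non-MG arrays first, with solid bars for the sum of a member's own probes and hatched bars for the rest of the total in the scanner files. The hatched part makes up most of the total of miR-30b-5p, miR-30c-5p and miR-30e-5p on the arrays where they were detected, and is missing for miR-30d-5p.

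The miRNAs whose pattern over the 4 arrays was most like the mean of the 3 members were sought among the 57 that reached a signal of 50, by the distance between log2 signals centered on their own mean. The nearest was miR-1290 at a distance of 0.0974, followed by miR-141-3p, a member of the miR-200 family, at 0.152 and miR-93-5p at 0.171, against a median distance of 0.445. miR-1290 had scaled signals of 82.1 and 77.7 in non-MG cells and 63.0 and 56.5 in MG cells. The members themselves lay farther from their own mean than these, at 0.324 for miR-30b-5p, 0.383 for miR-30c-5p and 0.457 for miR-30d-5p. The 3 nearest were picked as the smallest of 57 distances, so this contrast does not show how alike the members are. With 4 arrays that share a slide, this order is a description.

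miRNAs known to keep cells in the epithelial state, the miR-200 family with miR-203a-3p and miR-205-5p, were set beside the family, together with miR-34a-5p, which is known to repress SNAI1. Of these 8 miRNAs, 7 were found on some array and 6 could be tested. All 6 had a mean change below 0, as did 73.0% of the 115 miRNAs detected on all 4 arrays. Their log2 changes ranged from -0.49 to -0.03 with a median of -0.25, and none was called by limma. The miRNA found but not tested, miR-203a-3p, was detected on MG replicate 1 alone, at a scaled signal of 5.76. The largest changes were those of miR-200a-3p at -0.49 (limma adjusted p = 0.125) and miR-141-3p at -0.39 (limma adjusted p = 0.189), close to that of miR-30b-5p in size. No difference between this list and the miR-30 members was tested.

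Under other ways of processing, miR-30c-5p and miR-30b-5p kept a log2 change below 0 and moved across the threshold, and miR-30d-5p never passed it. Over 18 fits the log2 change of miR-30c-5p ranged from -0.91 to -0.11. With all 4 arrays its adjusted p-values ran from 0.000891 to 0.372. Its call was lost with normexp, which called 17 of 115 miRNAs, and with quantile normalization, which called 11. It was also lost with the totals, the floor of 10 and an unmoderated test, which called 0 of 115. Both fits over miRNAs detected on at least 1 array lost it too and called 1 of 139. These near-empty fits say little on miR-30c-5p in particular. The log2 change of miR-30b-5p ranged from -0.87 to -0.12 over 19 fits, and that of miR-30d-5p from -0.35 to 0.17. miR-30b-5p was called with the replicate block, as were 18 of 115 miRNAs, and with a minimum of 20, as were 15 of 91. The smallest changes of miR-30b-5p and miR-30c-5p came with normexp background correction, which adds 50 to every spot and so compresses dim signals by construction.

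**Figure D5:**
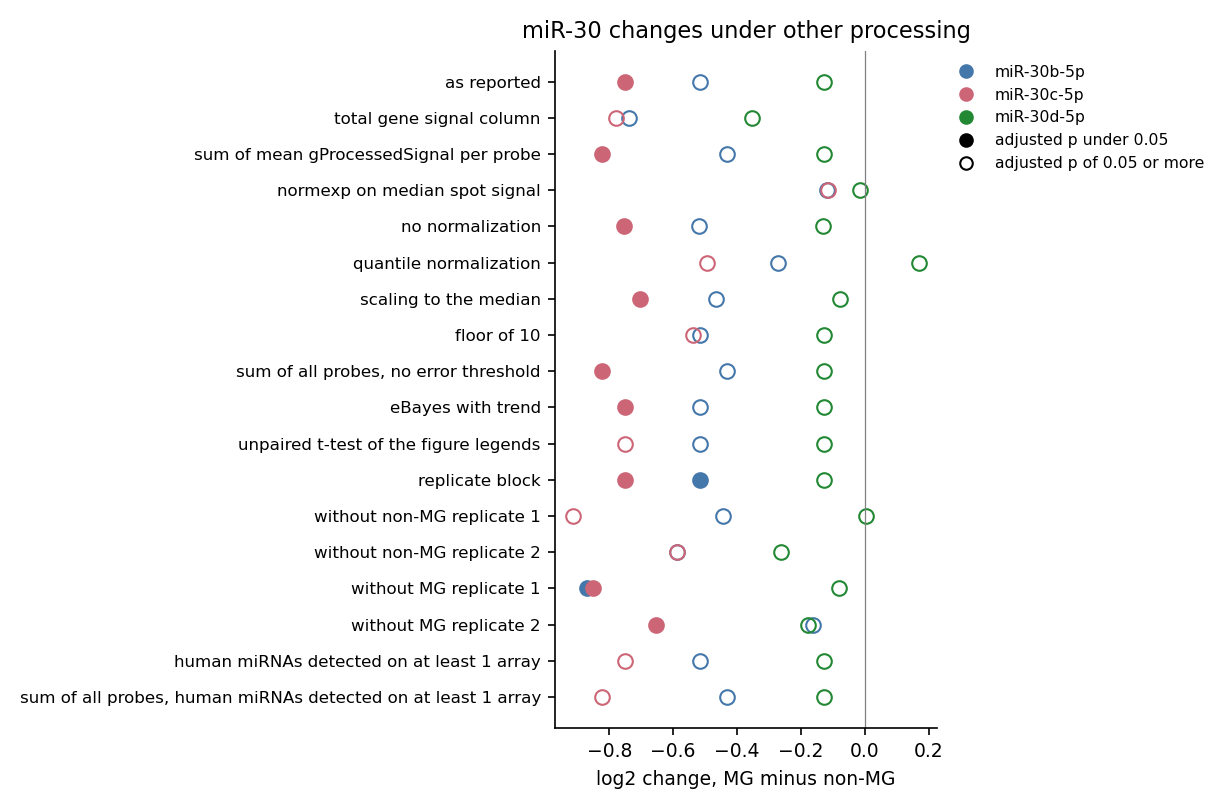
Log2 change, MG minus non-MG, of the 3 members detected on all 4 arrays under the reported processing and each alternative, with filled symbols for an adjusted p under 0.05 and open symbols otherwise. miR-30c-5p and miR-30b-5p stay left of 0 in every line, and miR-30d-5p lies right of 0 with quantile normalization and without non-MG replicate 1.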

How the data were processed

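Total RNA from 2 samples each of MG and non-MG cells was labelled with Cy3 and hybridised to Agilent arrays for human miRNAs. For each array the authors deposited the output of Agilent Feature Extraction 10.7.1.1, which holds the intensity of spots, probes and miRNAs after background subtraction. They also deposited a table of 1 intensity per miRNA and array, not normalized between arrays. That table equaled the sum of probes above 3 times their error for 142 of 142 detected miRNAs, within 5.73e-05%, and was the signal used here. The files' flags (detected, well above background, saturated, outlier), deposited beside the intensities, were used for detection, and no spot was saturated.

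Scaling set the 75th percentile over 116 miRNAs that all 4 arrays detected (115 of them human) equal between arrays, values under 1 were set to 1, and log2 was taken. Groups were compared with limma 3.58.1 in R 4.3.3 (two-sided moderated test, p-values adjusted by Benjamini-Hochberg over all miRNAs fitted), calling an adjusted p under 0.05. Python 3.11.15 with pandas 2.3.3 prepared the tables, and the fit was also tested on simulated data. The minimum signal of 50 taken from the study left 0 of the 5 members, so their tests come from the fit without a minimum. That of miR-30e-5p comes from the sum of all probes over 139 human miRNAs found on any array, a setting added after these values were seen. The miRNAs named are the 5 members, the other arms of their hairpins, the 3 miRNAs nearest in pattern and, of the epithelial list, at most 2 with the largest change. miR-29c-3p was named, and miR-203a-3p given apart from its list, after their values were seen. The members and lists were chosen with earlier results of these data known. Other alternatives covered the signal summary, background, scaling, floor, filter, test, a replicate block and each array left out. The study gives no test and no normalization for the arrays. Depth has no meaning for arrays, and their number limits the precision. RT-qPCR and the migration assays were not analysed here.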

Additional observations from a re-analysis of the deposited data

How the results depend on the processing

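With the minimum signal of 50, 0 members were tested and 0 called, against 1 of 3 without a minimum (9.57% of all miRNAs tested) and 1 of 2 with a minimum of 20 (16.5%). Without a minimum, the 1 call became 0 with the totals of the scanner files, normexp, quantile normalization, a floor of 10, the unpaired t-test that the figure legends name, and both fits over miRNAs detected on at least 1 array. It became 2 with a replicate block, and the calls of fits that left out an array are not read. The limma adjusted p of miR-30c-5p was 0.192 with the totals, 0.347 with normexp, 0.0842 with quantile normalization and 0.182 with the floor of 10. By the t-test its adjusted p was 0.372. The totals, the floor of 10 and the t-test called 0 of the 115 miRNAs. The floor of 10 lay above both MG signals of miR-30c-5p, at 9.24 and 8.05, and so moved its log2 change to -0.54 by construction. Why the call was lost in these fits was not tested. The log2 change of miR-30d-5p turned to 0.17 with quantile normalization and ran from -0.26 to 0.0045 when an array was left out, the upper value without non-MG replicate 1. The median log2 change of the 4 detected members was -0.63, beside -0.13 over the 139 human miRNAs found on any array. The members' median includes miR-30e-5p at -1.56, because its undetected signal on MG replicate 2 was set to the floor of 1. This median moved to -0.76 with the totals, -0.32 with the floor of 10, -0.077 with normexp and -0.38 with quantile normalization. The floor of 10 lay above every miR-30e-5p signal and so left that member no change by construction. The median was -0.52 over members detected on all 4 arrays and -0.32 with a minimum of 20. It ran from -0.86 to -0.30 when an array was left out. Detected members fell from 4 to 2 when at least 8 of the 16 spots on an array had to be well above background. No pair of members was called, but 5 of the 18 alternatives called no pair of any miRNAs and say nothing on this (the t-test, either non-MG array left out, and both fits over miRNAs detected on at least 1 array), and minimum signals of 100, or of 50 on at least 2 arrays, left no member, pair or median to give.

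Over the 115 miRNAs the 11 calls became 0 with the totals, the floor of 10 and the t-test (13 at an unadjusted p under 0.05), 17 with normexp, 24 with a trend in eBayes, 18 with the replicate block and 0 to 18 when an array was left out, and 1 over miRNAs detected on at least 1 array. Arrays with the same replicate number had deviations that correlated at 0.263 over the 115 miRNAs and at 0.481 over the 57 past the signal minimum. The labels give these arrays no shared batch, and whether they share more than a number is not known. Under the block miR-30b-5p had a limma adjusted p of 0.0410 and miR-30c-5p one of 0.000891. A block for the slide could not be fitted, since all arrays lay on 1 slide.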

Other observations

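The excess in the scanner totals was not confined to the miR-30 members. Over the 4 arrays, 126 of 510 detections of a miRNA had a total above the sum of its own probes, and in 124 of the 126 the excess equaled the total of the last detected miRNA before it in the order of names, within 0.1%. A probe below 3 times its error was present in 126 of the 126, and of 346 detections with all probes above, 0 had an excess. In the totals of miR-30c-5p, 80.1% to 86.9% was the carried part, from miR-30b-5p and, through it, miR-29c-3p.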
